A study of Mus musculus with 22 samples.

Results

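The quantity described here is how the response to oxidised low-density lipoprotein (ox-LDL) differed between splenic monocytes and macrophages made from such monocytes. For each gene it is the log2 change with ox-LDL in macrophages minus the log2 change with ox-LDL in monocytes. All 22 libraries of the series entered it, with 1 coefficient for each of 4 groups. The cells were wild-type primary cells from the spleens of male C57BL/6 mice. Macrophages had been differentiated from monocytes with the phorbol ester PMA at 200 ng/mL for 5 days. Cells of both kinds then received vehicle or ox-LDL at 50 µg/mL for 24 hours. The groups were 6 vehicle monocyte libraries (replicates 1 to 6), 5 ox-LDL monocyte libraries (7 to 11), 5 vehicle macrophage libraries (A to E) and 6 ox-LDL macrophage libraries (G to L). A negative difference therefore means that ox-LDL lowered a transcript further, or raised it less, in macrophages than in monocytes. The macrophages had 5 days with a phorbol ester that the monocytes did not have, so cell type and PMA treatment cannot be told apart. The labels do not say whether replicates were separate mice or cultures, so the p-values reflect only how much libraries of a group varied, which may be technical.

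Cells that take up ox-LDL receive cholesterol through scavenger receptors such as Cd36 and store it as ester in lipid droplets. Cholesterol in the endoplasmic reticulum is sensed by Scap and the Insig proteins, which hold the SREBP-2 transcription factor in that membrane when sterol is plentiful. With SREBP-2 held back, transcription of the genes of cholesterol synthesis and uptake falls. Oxidised sterols also activate the LXR receptors, which raise the efflux pumps Abca1 and Abcg1, and oxidised lipids activate NRF2, which raises antioxidant genes. Foam cells are macrophages, and foamy monocytes are circulating cells, that have filled with such lipid.

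Library totals ran from about 37330400 to 50257100 counts, and 17466 genes were tested. Levels are given as CPM, counts divided by library size with TMM factors, as mean ± SD. Over the 9563 genes that averaged 5 CPM or more, the median SD of log2 CPM was 0.27 in vehicle monocytes, 0.28 in ox-LDL monocytes, 0.15 in vehicle macrophages and 0.15 in ox-LDL macrophages. Summed macrophage markers (18 genes) were 10560 to 18930 CPM in the monocyte libraries and 57590 to 79450 in the macrophage libraries. Summed monocyte markers (14 genes) did not separate the cell types that way, at 1210 to 2939 CPM in monocytes and 2607 to 6700 in macrophages. Csf1r alone made up most of the macrophage sum, at 2420 to 5687 CPM there and 535 to 1203 in monocytes. Not all 14 went that way: Hp was 93.0 to 959 CPM in monocytes and 1.12 to 13.8 in macrophages, where Plac8 was near 0. Summed neutrophil markers (17 genes) ran from 5172 to 47420 CPM in monocytes and from 29.7 to 99.2 in macrophages, and Ly6g, Retnlg, Fcnb and Wfdc21 had 0 counts in all ox-LDL macrophages. Monocyte replicates 5, 6, 10 and 11 held 31630 to 47420 CPM of them, and the other 7 monocyte libraries 5172 to 6250. Erythroid markers (10 tested) summed to 441 to 14420 CPM in monocytes and 0.75 to 2.85 in macrophages. So markers of other blood cells were high and variable in the monocyte libraries and low in the macrophage libraries, and their part in the differences below was not tested unless a value without those libraries is given. In bulk samples, fewer cells of a type and less RNA per cell cannot be told apart.

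Of the genes described below, Insig1, Idi1, Msmo1 and Cyp51 carry the main result and have a RefSeq promoter. Their promoters are shown because genes of this pathway, which moved together in macrophages, are known to use SREBP together with NF-Y, the factor that binds CCAAT. Each line gives the 250 bases before the RefSeq start site (GRCm38.p6), 5′ to 3′ on the gene's strand, and capitals mark CCAAT on either strand (ATTGG is its reverse complement).
Insig1, chr5:28071162-28071411, plus strand: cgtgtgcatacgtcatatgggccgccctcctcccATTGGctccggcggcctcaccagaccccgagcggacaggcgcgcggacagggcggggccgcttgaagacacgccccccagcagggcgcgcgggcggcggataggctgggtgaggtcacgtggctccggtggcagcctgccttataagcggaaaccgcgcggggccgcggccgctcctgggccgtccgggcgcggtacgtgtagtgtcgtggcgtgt
Idi1, chr13:8885356-8885605, plus strand: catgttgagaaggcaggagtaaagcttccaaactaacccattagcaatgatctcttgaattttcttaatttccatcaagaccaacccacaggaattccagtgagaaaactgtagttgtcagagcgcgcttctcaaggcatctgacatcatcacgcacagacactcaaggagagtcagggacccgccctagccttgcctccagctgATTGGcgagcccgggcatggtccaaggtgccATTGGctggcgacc
Msmo1, chr8:64733579-64733828, minus strand: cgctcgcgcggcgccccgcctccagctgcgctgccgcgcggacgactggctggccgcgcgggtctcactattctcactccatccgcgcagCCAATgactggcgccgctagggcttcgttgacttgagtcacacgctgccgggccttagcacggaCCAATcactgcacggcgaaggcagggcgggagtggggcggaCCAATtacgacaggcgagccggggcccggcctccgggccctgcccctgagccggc
Cyp51, chr5:4104698-4104947, minus strand: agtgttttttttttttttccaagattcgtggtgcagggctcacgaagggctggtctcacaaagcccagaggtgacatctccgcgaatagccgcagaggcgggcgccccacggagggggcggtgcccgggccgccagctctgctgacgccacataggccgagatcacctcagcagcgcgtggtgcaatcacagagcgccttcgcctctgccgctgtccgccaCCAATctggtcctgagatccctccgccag

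In these windows Msmo1 had 3 CCAAT matches, Idi1 had 2 and Insig1 and Cyp51 had 1 each. The nearest match to the start was 9 bases from it in Idi1, 24 in Cyp51, 50 in Msmo1 and 211 in Insig1. Of the 25 tested genes on the list of sterol synthesis and uptake, 18 had a RefSeq promoter of 300 bases (250 before the start and 50 after). Of these 18, 16 (88.9%) held CCAAT, against 42.7% of the 10976 tested genes with a promoter. CCAAT is not particular to this list. Among members with a promoter it was in 7 of 7 MHC class II genes, 12 of 21 NRF2 antioxidant genes and 11 of 27 interferon-response genes. The sterol regulatory element searched, TCACNCCAC on either strand, was found in 1 of the 18, Hmgcs1, against 1.41% of tested genes. Neither motif contains the other. These are letter matches, not measured binding sites.

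The difference of ox-LDL effects was called (adjusted p under 0.05, edgeR's quasi-likelihood test with Benjamini-Hochberg adjustment) for 11 genes, 0.063% of those tested. For 10 genes (0.0573%) it was negative and for 1 gene (0.00573%), Zfp217, it was positive. Genes of cholesterol synthesis and trafficking made up most of the negative differences that are described here: Insig1, Idi1, Msmo1, Cyp51, Sqle and Stard4 fell with ox-LDL in macrophages, and none of these 6 was called in monocytes. A further 3 are Rn7sk, a copy of it named Gm24447, and the histone gene Hist1h4c. At an unadjusted p under 0.05 there were 1261 genes (7.22%), 652 higher and 609 lower.

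The 11 calls compare with 259 genes called for ox-LDL in monocytes (1.48%; 150 higher, 109 lower) and 80 in macrophages (0.458%; 6 higher, 74 lower) in the same fit. Only 13 genes were called in both cell types, and all 13 moved the same way. Another 246 were called in monocytes alone and 67 in macrophages alone, yet the difference itself was called for 1 of the monocyte calls and 10 of the macrophage calls. Most genes past the threshold in 1 cell type were therefore not shown to respond differently in the other. The 4-group fit shares 1 estimate of spread over both cell types. Fitted on the 11 monocyte libraries alone the count was 4 genes (Plin2, Cd36, Akr1b8 and Mmp12, all higher), so every other monocyte call named below holds in the 4-group fit and not with monocytes alone. The cause of that drop was not tested. Fitted on the 11 macrophage libraries alone the count was 342, and 74 of the 80 macrophage calls were among them.

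**Figure D1:**
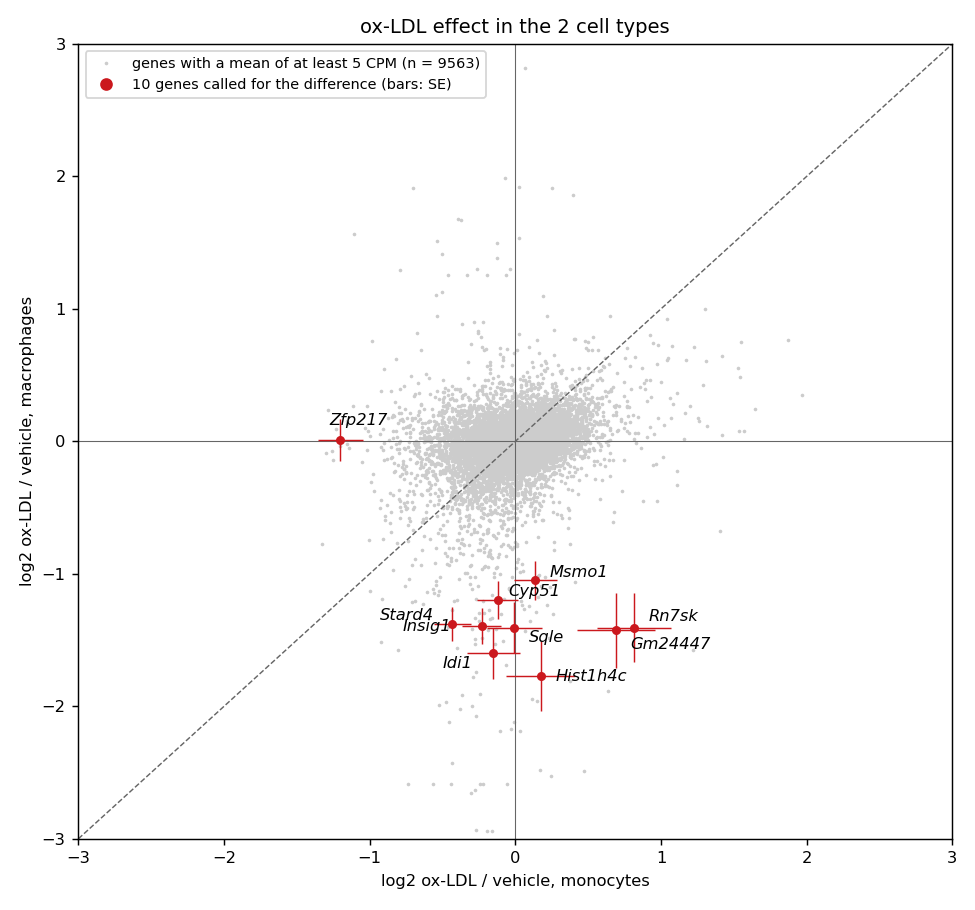
Log2 change with ox-LDL in monocytes (x axis) and in macrophages (y axis) for the 9563 genes averaging 5 CPM or more (grey) and for 10 of the 11 genes called for the difference (red, bars are SE); the dashed line marks equal effects. The sterol genes lie below the line near 0 on the x axis, at about -1.05 to -1.60 on the y axis, Zfp217 lies at -1.20 on the x axis and near 0 on the y axis, and Rn7sk and Gm24447 lie in the quadrant of opposite signs.

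Among the 11 called genes, the macrophage effect was called for 10 and the monocyte effect for 1, and for none were both called. In 6 genes the signs were the same and the macrophage effect was the larger one, and in 5 the signs were opposite, although for most of these 1 of the effects was small against its SE.

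Insig1 (ENSMUSG00000045294, chromosome 5, 28071363 to 28078662, GRCm38) encodes an endoplasmic reticulum protein that retains the SREBP-2 complex and is itself an SREBP target. Its level was 45.6, 58.5, 54.8, 51.4, 31.2 and 44.8 CPM in vehicle monocytes 1 to 6 and 50.6, 45.7, 42.7, 31.9 and 32.5 CPM in ox-LDL monocytes 7 to 11. In macrophages it was 67.1, 69.3, 64.3, 63.7 and 69.5 CPM in vehicle replicates A to E and 25.5, 24.2, 27.0, 26.0, 22.9 and 26.9 CPM in ox-LDL replicates G to L. The macrophage groups lay far apart and the monocyte groups overlapped. The log2 change was -0.23 ± 0.13 (SE) in monocytes and -1.39 ± 0.13 in macrophages, a difference of -1.16 ± 0.19 (adjusted p = 0.0190).

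Idi1 (ENSMUSG00000058258, chromosome 13, 8885501 to 8892451) encodes the isomerase that makes dimethylallyl diphosphate, an early step of isoprenoid synthesis. It stood at 39.7, 55.2, 60.4, 62.6, 51.3 and 49.3 CPM in vehicle monocytes and 53.2, 52.8, 54.9, 36.8 and 41.4 CPM with ox-LDL (7 to 11). Vehicle macrophages held 6.98, 7.19, 7.04, 6.61 and 7.15 CPM, and ox-LDL macrophages 1.25, 2.16, 1.97, 3.87, 1.77 and 2.77 CPM. Macrophages thus started from a level far under that of monocytes and still separated completely, while monocyte groups overlapped. The difference was -1.45 ± 0.26 (-0.15 ± 0.18 in monocytes, -1.60 ± 0.19 in macrophages; adjusted p = 0.0354).

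Msmo1 (ENSMUSG00000031604, chromosome 8, 64718139 to 64733792), a C4-methylsterol oxidase, measured 132.6, 159.6, 159.3, 154.3, 145.3 and 133.6 CPM in vehicle monocytes and 166.5, 164.9, 191.5, 114.2 and 174.2 CPM in ox-LDL monocytes 7 to 11. Vehicle macrophages had 92.9, 99.2, 94.9, 92.3 and 81.2 CPM. Ox-LDL macrophages had 34.9, 35.2, 50.6, 62.7, 33.2 and 50.2 CPM, all below every vehicle library, with replicates G, H and K lowest. The log2 change was 0.14 ± 0.15 in monocytes and -1.05 ± 0.15 in macrophages, and the difference was -1.19 ± 0.21 (adjusted p = 0.0354).

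Cyp51 (ENSMUSG00000001467, chromosome 5, 4081145 to 4104746) encodes lanosterol 14-alpha-demethylase. Its mean was 209.6 ± 31.1 CPM in vehicle monocytes and 192.7 ± 43.2 in ox-LDL monocytes, with overlapping ranges. In macrophages the vehicle libraries held 49.0, 53.7, 52.7, 46.9 and 51.0 CPM and the ox-LDL libraries 18.5, 19.9, 25.0, 26.5, 17.9 and 24.7 CPM. The difference of log2 effects was -1.08 ± 0.20 (-0.12 ± 0.14 in monocytes, -1.20 ± 0.14 in macrophages; adjusted p = 0.0354).

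Sqle (ENSMUSG00000022351, chromosome 15, 59315077 to 59331192) encodes squalene epoxidase, a rate-controlling enzyme of the sterol branch. Monocyte means were nearly equal, 99.1 ± 23.4 CPM with vehicle and 98.6 ± 23.9 with ox-LDL, while single libraries ranged from 69.1 to 137.9. Vehicle macrophages measured 35.4, 37.3, 42.9, 40.1 and 39.2 CPM, and ox-LDL macrophages 9.86, 12.6, 18.2, 19.8, 10.7 and 17.0 CPM. The difference was -1.40 ± 0.27 (-0.01 ± 0.19 in monocytes, -1.41 ± 0.19 in macrophages; adjusted p = 0.0444).

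Stard4 (ENSMUSG00000024378, chromosome 18, 33199355 to 33213862), a carrier that moves cholesterol between membranes, had the lowest monocyte p-value of these 6 genes. It measured 9.72, 11.0, 13.8, 12.7, 14.4 and 12.97 CPM in vehicle monocytes and 9.84, 8.99, 8.54, 10.1 and 8.52 CPM in ox-LDL monocytes 7 to 11, and those ranges overlap. Vehicle macrophages had 11.0, 13.9, 13.6, 12.8 and 12.2 CPM and ox-LDL macrophages 4.67, 3.74, 4.47, 6.25, 4.65 and 5.54 CPM. The log2 change was -0.43 ± 0.13 in monocytes (adjusted p = 0.0930) and -1.38 ± 0.13 in macrophages, a difference of -0.95 ± 0.18 (adjusted p = 0.0444). Sqle and Stard4 lie just inside the threshold, and Plin2 and Mvd (both adjusted p = 0.0655) just outside it.

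**Figure D2:**
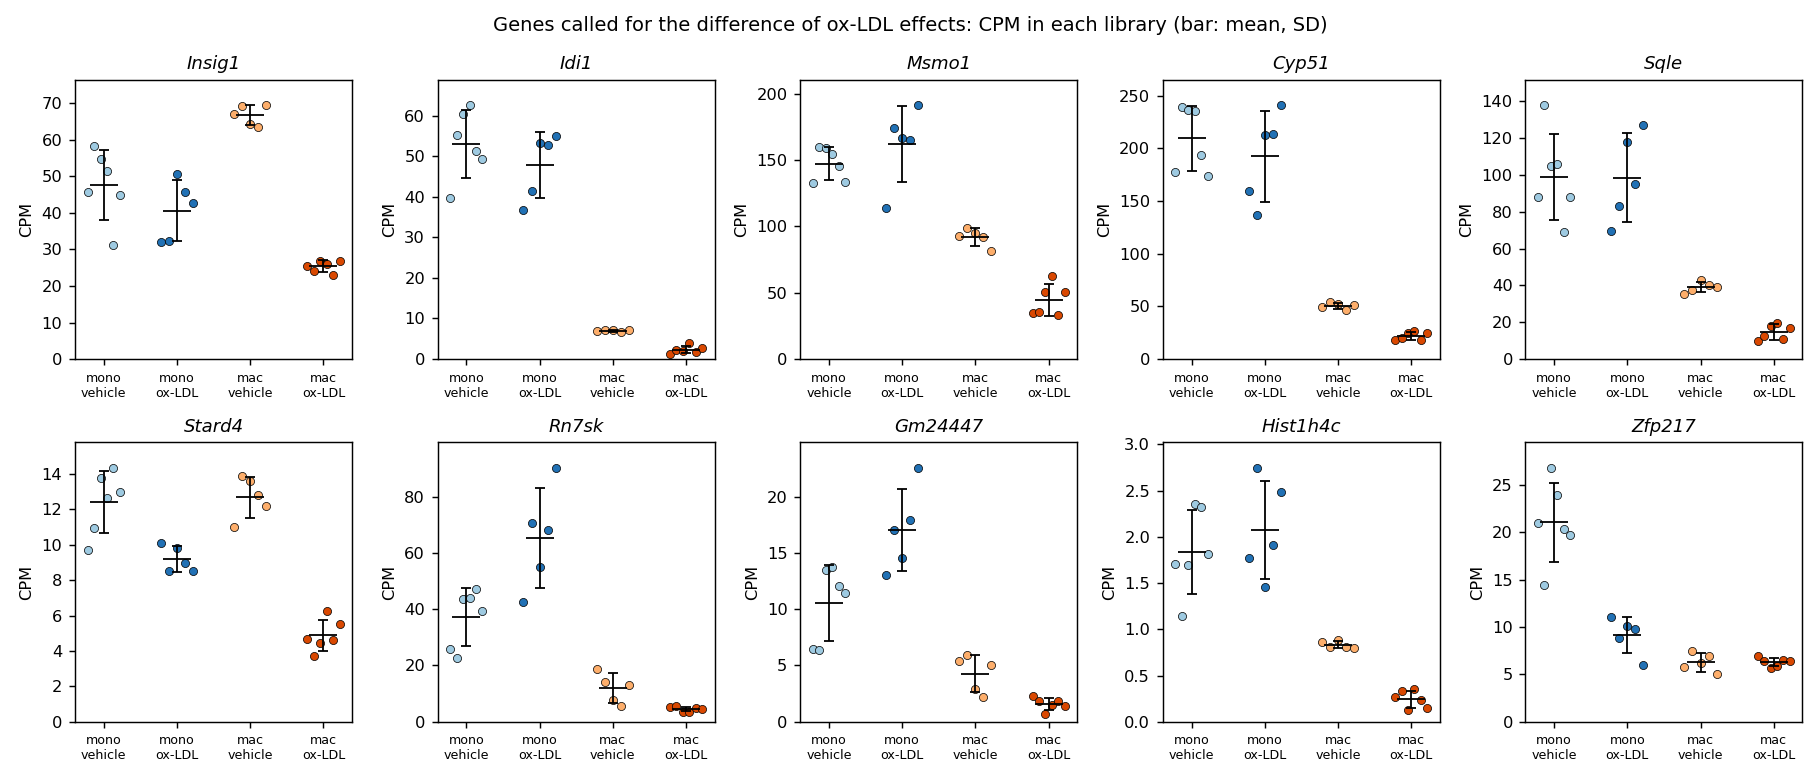
CPM (linear y axes from 0) of 10 genes called for the difference in each of the 22 libraries: monocytes (mono) and macrophages (mac) with vehicle or ox-LDL, with mean and SD as black bars. For the 6 sterol genes in the first 6 panels every ox-LDL macrophage library lies below every vehicle macrophage library while the monocyte groups overlap; for Zfp217 it is the monocyte groups that separate.

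Over the whole list of sterol synthesis and uptake, 25 of 26 genes were tested. The difference was called lower for 7 and higher for 0, and it was below 0 for 23 (8874 of 17466 over all genes tested). Its median was -0.76, against -0.01 over all genes tested. The median effect was -0.15 in monocytes and -0.76 in macrophages. In macrophages 15 of the 25 fell by the test and none rose, where 74 of all genes tested fell and 6 rose. The ox-LDL libraries lay wholly below the vehicle libraries for 20 of the 25 there, where 1.57% of all tested genes did so. In monocytes 1 gene fell by the test, Srebf2, and it was also the 1 gene whose groups did not overlap (0.727% of all tested genes did so in that direction). The macrophage change was uneven across the pathway, and for Scap, the sterol-sensing escort of SREBP-2, it was -0.02 on the log2 scale. Mvd, the mevalonate diphosphate decarboxylase, fell from 29.7 ± 2.1 to 15.4 ± 1.4 CPM in macrophages and measured 93.3 ± 11.5 and 85.7 ± 17.5 CPM in monocytes (difference -0.82 ± 0.17).

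Srebf2 encodes SREBP-2 itself and did not share the pattern of the enzymes. It was chosen for mention after its values were seen. It fell from 497.7 ± 82.4 to 275.1 ± 65.2 CPM in monocytes and from 137.2 ± 20.9 to 85.2 ± 5.12 CPM in macrophages. The log2 changes were -0.86 and -0.69, and the difference was 0.17 ± 0.20 (adjusted p = 0.930). With the monocyte libraries alone its monocyte change had an adjusted p of 0.164. Hmgcs1, which makes HMG-CoA and was also chosen after its values were seen, fell in macrophages (log2 change -0.69, adjusted p = 0.00705) and had a difference of -0.50 ± 0.17 that was not called (adjusted p = 0.514).

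**Figure D3:**
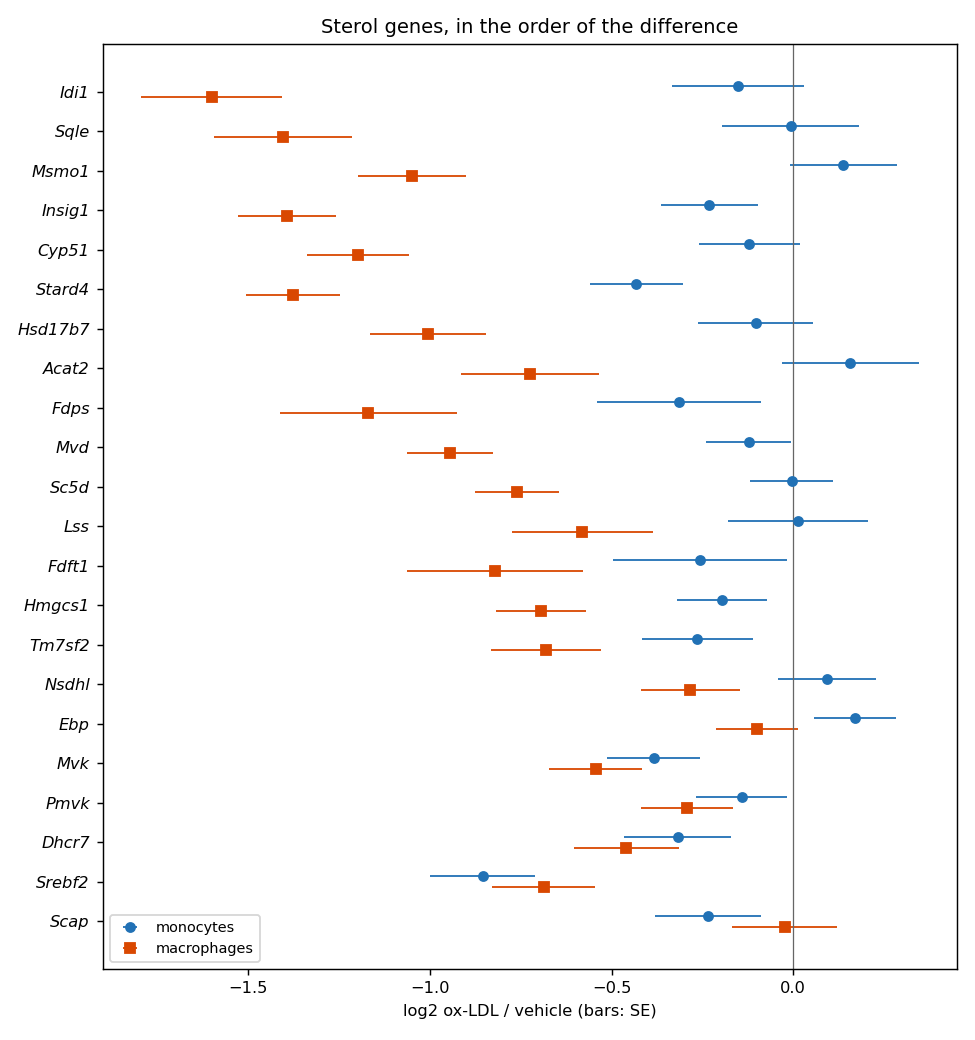
Log2 change with ox-LDL (x axis, bars are SE) for 22 of the 25 tested genes of sterol synthesis and uptake (y axis), in the order of the difference, in monocytes (circles) and macrophages (squares). Macrophage values run from -1.60 for Idi1 to -0.02 for Scap while most monocyte values stay near 0; Srebf2 is low in both cell types, at -0.86 and -0.69.

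Zfp217 (ENSMUSG00000052056, chromosome 2, 170108643 to 170148103), a zinc-finger transcription factor that works with corepressor complexes, was the 1 gene called in the other direction. It measured 21.0, 14.4, 26.8, 24.0, 20.4 and 19.8 CPM in vehicle monocytes and 10.1, 9.76, 5.99, 11.1 and 8.84 CPM in ox-LDL monocytes 7 to 11, with no overlap. Macrophage libraries held 5.01 to 7.46 CPM with vehicle and 5.73 to 6.93 CPM with ox-LDL. The log2 change was -1.20 ± 0.16 in monocytes and 0.01 ± 0.16 in macrophages, a difference of 1.21 ± 0.22 (adjusted p = 0.0354). Ox-LDL monocytes thus came down toward the macrophage level, but only replicate 9 (5.99 CPM) lay within the macrophage range and the others stayed above it. With the monocyte libraries fitted alone the adjusted p of its fall was 0.0565.

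Rn7sk (ENSMUSG00000065037, chromosome 9, 78175303 to 78175633) encodes 7SK, a small nuclear RNA made by RNA polymerase III that holds the elongation factor P-TEFb inactive. Its difference was the largest among the called genes described here. Vehicle monocytes had 25.8, 22.8, 43.6, 43.9, 47.1 and 39.4 CPM and ox-LDL monocytes 54.9, 68.0, 90.2, 42.6 and 70.7 CPM (replicates 7 to 11). Vehicle macrophages had 18.8, 14.2, 7.79, 5.52 and 13.2 CPM and ox-LDL macrophages 5.08, 5.47, 3.58, 3.55, 4.76 and 4.52 CPM. The macrophage groups did not overlap, but vehicle replicate D lay only just above ox-LDL replicate H, and C and D were well below A, B and E. The log2 change was 0.82 ± 0.25 in monocytes (adjusted p = 0.107, not called) and -1.41 ± 0.26 in macrophages, and the difference was -2.22 ± 0.36 (adjusted p = 0.0190). Macrophages C, D, I and J formed a set of their own in the residuals of all genes, a split made after seeing the data. Within that set the macrophage change on the log2(CPM + 1) scale was -0.73 and within the other macrophages -1.45. The monocyte changes within 3 sets of libraries all lay above 0 (0.34 to 1.15). Over the 6 pairings of a monocyte set with a macrophage set the difference ran from -2.60 to -1.07.

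Gm24447 (ENSMUSG00000065911, chromosome 15, 93234363 to 93234700), a predicted gene and copy of 7SK, and so outside the naming rule, had these levels: 10.6 ± 3.4 and 17.0 ± 3.6 CPM in monocytes, 4.28 ± 1.64 and 1.60 ± 0.52 CPM in macrophages, difference -2.12 ± 0.39 (adjusted p = 0.0366). Of 3 further copies named after their values were seen, Gm26035 had a difference of -2.01 ± 0.44, Gm22058 of -2.22 ± 0.48 and Gm24146 of -2.24 ± 0.50, with adjusted p of 0.112, 0.111 and 0.137. Reads of near-identical copies can be shared between them, so these 5 rows are not 5 measurements. Hist1h4c (ENSMUSG00000060678, chromosome 13, 23697635 to 23698454), a replication-dependent histone H4 gene also outside the rule because of its level, went from 0.83 ± 0.04 to 0.24 ± 0.09 CPM in macrophages and measured 1.84 ± 0.45 and 2.07 ± 0.53 CPM in monocytes. Its difference was -1.95 ± 0.35 (adjusted p = 0.0354). The 26 cell cycle genes had no call and a median difference of -0.05. Neither 7SK nor this class of histone messenger normally carries a poly(A) tail, and the labels give polyA RNA. How the tail-less share of each library was carried over was not tested.

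Reversals were sought as genes whose effects had opposite signs with an unadjusted p under 0.05 in each cell type. Of the 17466 genes tested, 7567 had opposite signs and 31 met this rule, 11 higher in monocytes and 20 higher in macrophages. How many would meet it by chance was not tested, so the count is no result in itself. Of the 31, 12 averaged 5 CPM or more. The difference was called for only 2 of the 31, Rn7sk and Gm24447, so the rest describe estimates that the test across all genes did not separate. Nup210, a nuclear pore membrane protein, measured 130.9 ± 39.6 and 69.9 ± 27.7 CPM in monocytes and 5.49 ± 1.46 and 8.04 ± 1.81 CPM in macrophages (difference 1.45 ± 0.36, adjusted p = 0.212). Pim1, a survival kinase induced by cytokines, measured 53.6 ± 20.3 and 35.0 ± 7.1 CPM in monocytes and 4.06 ± 0.55 and 5.78 ± 0.66 CPM in macrophages, where the groups did not overlap (difference 1.12 ± 0.28, adjusted p = 0.212). Vehicle monocytes alone ranged from 32.1 to 89.4 CPM for Pim1.

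Ext1, a heparan sulfate polymerase, Hnrnpa3, an RNA-binding protein, Pdap1 and Tmem242 had the same shape at smaller size, with differences of 0.73 ± 0.18, 0.69 ± 0.18, 0.87 ± 0.23 and 0.77 ± 0.22. For Hnrnpa3 the groups with vehicle were nearly level at 31.1 ± 6.9 CPM in monocytes and 28.3 ± 2.7 in macrophages, and with ox-LDL they stood at 24.2 ± 3.3 and 35.5 ± 3.1. Arrdc3, an arrestin-domain adaptor, and Camk1, a calcium/calmodulin-dependent kinase, went the other way, at -0.72 ± 0.21 and -0.51 ± 0.15. Camk1 measured 85.3 ± 11.1 and 102.4 ± 17.4 CPM in monocytes and 319.2 ± 26.6 and 269.5 ± 18.8 CPM in macrophages. Ppbp, a platelet chemokine, had a difference of -2.80 ± 0.66 (adjusted p = 0.170) but only 0 to 1.60 CPM in any macrophage library. Extl1 had 4 counts over all vehicle macrophages and 17 over all ox-LDL macrophages, so its macrophage side is at the limit of detection.

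**Figure D4:**
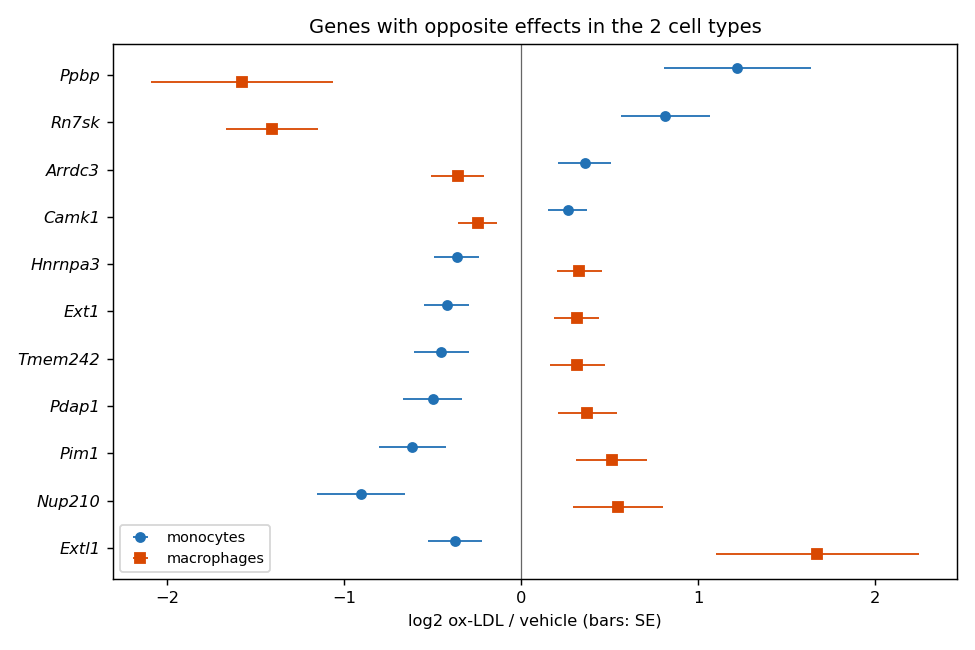
Log2 change with ox-LDL (x axis, bars are SE) in monocytes (circles) and macrophages (squares) for 11 genes with opposite signs and an unadjusted p under 0.05 in each cell type (y axis). Circles and squares lie on opposite sides of 0 in each row, from Ppbp (difference -2.80) to Extl1 (2.05); of these 11 the difference was called for Rn7sk alone.

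Genes of lipid uptake and storage were called mostly in monocytes in the 4-group fit, but the balance was different with each cell type fitted alone, and none of the differences below was called. Plin2, the lipid-droplet coat protein, stood at 501.3, 462.4, 595.8, 512.1, 549.8 and 582.3 CPM with vehicle in monocytes and at 853.0, 1304, 1626, 959.9 and 1258 CPM with ox-LDL (7 to 11). In macrophages it measured 1239 to 1602 CPM with vehicle and 1314 to 1879 CPM with ox-LDL. Of the 5 ox-LDL monocyte libraries, 3 lay within or above the range of vehicle macrophages. Plin2 rose by 1.17 ± 0.14 on the log2 scale in monocytes, the macrophage change was 0.21 ± 0.14, and the difference of -0.96 ± 0.19 just missed the threshold (adjusted p = 0.0655). It was called in 7 of 13 other fits and in 2 of the 22 that left out 1 library.

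Cd36, the main scavenger receptor for ox-LDL, rose in monocytes from 271.0 ± 67.7 to 793.1 ± 219.5 CPM. In macrophages it measured 1473 ± 212 and 2475 ± 188 CPM, and neither cell type's groups overlapped. The log2 change was 1.55 ± 0.17 in monocytes and 0.75 ± 0.17 in macrophages (adjusted p = 0.0514, and 0.0013 with macrophages alone), and the difference was -0.80 ± 0.24 (adjusted p = 0.370). The answer changes sign with the scale: in CPM, macrophages gained 1002 and monocytes 522.1, a difference of 479.9 ± 158.8 (SE). Akr1b8, an aldo-keto reductase, had a difference of -1.06 ± 0.24 (adjusted p = 0.137), Mmp12, a macrophage elastase, of -1.20 ± 0.39 (0.442), and Msr1, the class A scavenger receptor, of -0.80 ± 0.25 (0.404). In the 4-group fit all of these rose in monocytes and none passed the test in macrophages. Fitted alone, Akr1b8 also rose in macrophages (adjusted p = 0.0357), and Msr1 lost its monocyte call (0.236).

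On the list of lipid storage and PPAR targets 22 of 24 genes were tested, and 6 rose in monocytes and 0 in macrophages. Over all 17466 genes tested 150 rose in monocytes and only 6 in macrophages. The difference was called for none of the list and its median was -0.04. Besides Plin2 and Cd36 the 6 list members that rose in monocytes were Lipa, Soat1, Lpl and Angptl4. Soat1, which esterifies cholesterol for storage, measured 284.8 and 510.0 CPM in monocytes and 1070 and 1219 CPM in macrophages (difference -0.65 ± 0.22, adjusted p = 0.449). Lpl, lipoprotein lipase, had a difference of -0.64 ± 0.25, and Angptl4, its inhibitor, of -0.90 ± 0.30. Lipa, the lysosomal acid lipase, had a difference of -0.34 ± 0.19. With each cell type fitted alone, 2 genes of the list rose in monocytes (Plin2 and Cd36) and 3 in macrophages, among them Cd36 and Lipa (adjusted p = 0.0248). Over all genes those fits had 4 and 142 called higher. On the list of scavenger and lipoprotein receptors 17 genes were tested, 1 was called lower and the median difference was -0.25. Lysosomal genes (34 tested) had 6 called higher in monocytes and 0 in macrophages (150 and 6 over all genes), with 0 differences called and a median of -0.10. Fitted alone these were 0 in monocytes and 2 in macrophages (4 and 142 over all genes). Ctsb, a cysteine protease, had a difference of -0.51 ± 0.21, and Psap, the saposin precursor, of 0.62 ± 0.37. The 15 genes of lipid-associated macrophages had a median of -0.34 with 0 called, and Gpnmb among them had -0.73 ± 0.33.

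**Figure D5:**
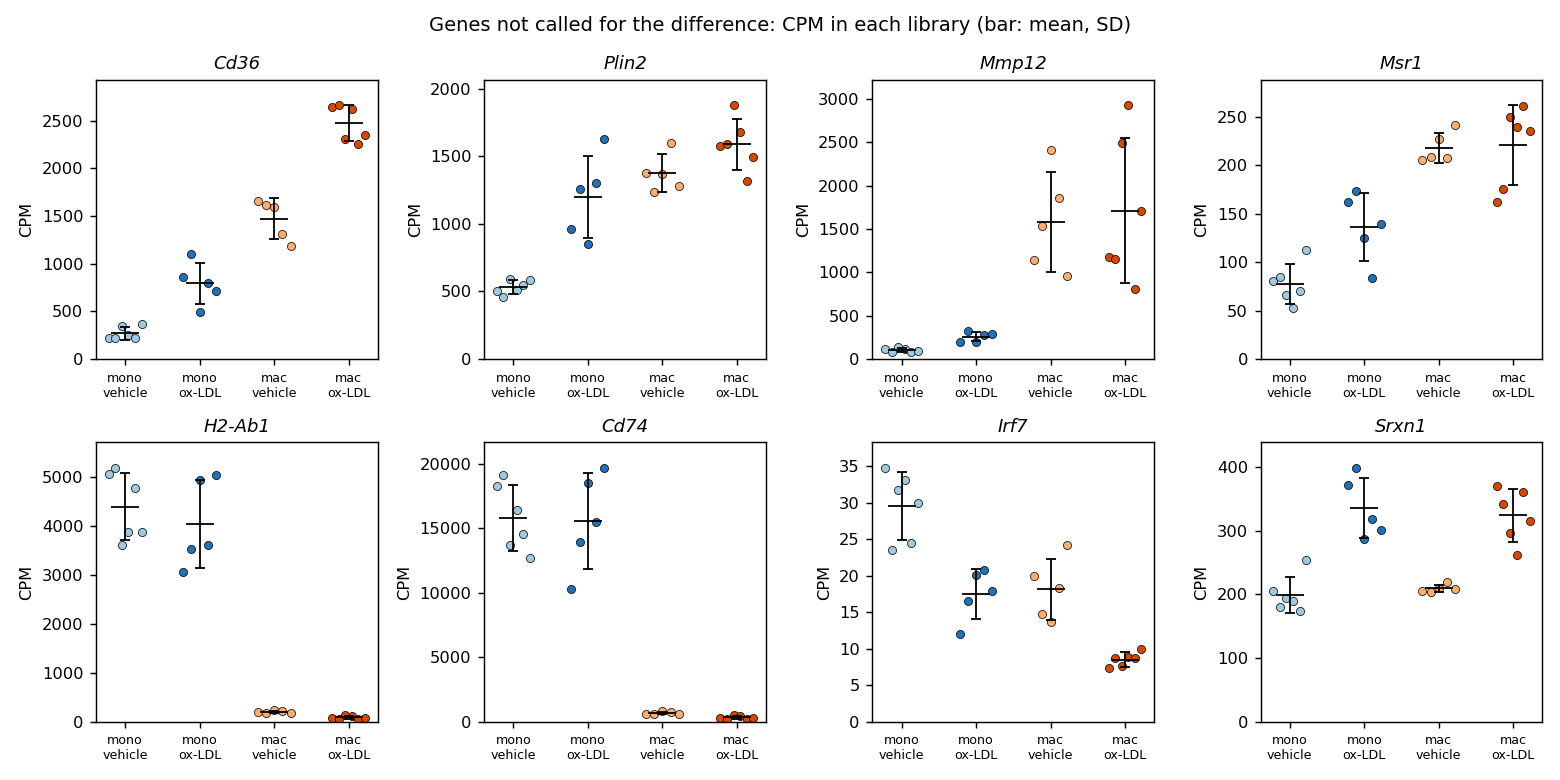
CPM (linear y axes from 0) in each of the 22 libraries, with mean and SD as black bars, for 8 genes whose difference was not called: monocytes (mono) and macrophages (mac) with vehicle or ox-LDL. By treatment, Cd36 separates in both cell types and Plin2 and Mmp12 in monocytes. H2-Ab1 and Cd74 separate in macrophages, where they are far lower than in monocytes, and Irf7 and Srxn1 move the same way in both cell types.

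MHC class II genes, which present antigen to CD4 T cells, all had a negative difference: 10 of 10, with a median of -0.75 and 0 called. Over all genes tested the difference was below 0 for 8874 of 17466. With the monocyte and macrophage library sets as covariates 5 of the 10 were called lower, H2-Ab1 (adjusted p = 0.00334), Cd74 (0.00409), H2-Aa (0.0115), H2-Eb1 (0.0229) and H2-Oa (0.0407), the last 3 named after their values were seen. That fit was chosen after seeing the data, and over all genes it called 70 lower. Its macrophage sets came from the residuals of these same data, so its p-values do not allow for that choice and are a description only. DESeq2 called H2-Ab1 (0.04995). In macrophages H2-Oa held only 0.16 to 0.50 CPM with vehicle and 0.06 to 0.11 CPM with ox-LDL. Its counts there were 75 and 22 over all libraries of each group, near the limit of detection. In macrophages 6 of the 10 fell by the test, and in monocytes 0 (74 and 109 of all 17466 genes tested). H2-Ab1 fell from 203.5 ± 23.8 to 89.3 ± 32.9 CPM in macrophages and measured 4389 ± 691 and 4030 ± 895 CPM in monocytes, a difference of -1.06 ± 0.28 (adjusted p = 0.234). Cd74, the invariant chain, fell from 679.1 ± 106.9 to 334.0 ± 131.1 CPM in macrophages and measured 15789 ± 2576 and 15575 ± 3731 CPM in monocytes (difference -1.0 ± 0.30, adjusted p = 0.370). On the CPM scale the H2-Ab1 change was -359.0 in monocytes and -114.1 in macrophages, a difference of 244.9 ± 490.1 with the opposite sign. The 10 dendritic cell markers summed to 866 to 1549 CPM in monocytes and 407 to 523 CPM in macrophages, and their median difference was -0.38 with 0 called. Irf8 alone held 398 to 515 CPM of the macrophage sum, while Flt3 was 0 to 0.35 CPM there and 184 to 368 in monocytes. The 14 B-cell and plasma cell markers, cells that also carry MHC class II, summed to 335 to 1214 CPM in monocytes and 100.4 to 218.4 CPM in macrophages, with a median difference of -0.36. Sdc1 held 53.2 to 170 CPM of the macrophage sum, while Cd79a was 0 to 0.09 CPM there and 94.9 to 408 in monocytes. The part of these cells in the MHC class II values was not tested.

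Of 36 interferon-response genes tested, 7 fell by the test in monocytes and 13 in macrophages, and none rose in either. Over all 17466 genes tested, 109 fell in monocytes and 74 in macrophages. With each cell type fitted alone the members that fell were 0 and 19, against 0 and 200 over all genes. The difference was called for 0, with 27 of 36 below 0 (8874 of 17466 over all genes) and a median of -0.34. Irf7, the master regulator of type I interferon, fell from 29.6 ± 4.6 to 17.5 ± 3.5 CPM in monocytes and from 18.2 ± 4.2 to 8.53 ± 0.97 CPM in macrophages (difference -0.33 ± 0.22, adjusted p = 0.814). Rtp4 and Trim30a also fell in both. With monocytes alone the monocyte adjusted p was 0.164 for Irf7, 0.175 for Rtp4 and 0.186 for Trim30a. Ifit1 and Ifit2 encode RNA-binding antiviral proteins, and both fell in macrophages alone by the test. Ifit2 measured 5.47 and 4.51 CPM in monocytes and 8.24 and 2.85 CPM in macrophages, a difference of -1.25 ± 0.35 (adjusted p = 0.327). Ifit1 had -1.69 ± 0.49 (adjusted p = 0.356), and Ifit1, Ifit2, Rtp4 and Trim30a were named after their values were seen. Gbp2 and Usp18 had differences of -0.23 ± 0.32 and -0.77 ± 0.31. An ISRE (GAAANNGAAA on either strand) was in 17 of the 27 members with a promoter, against 3.94% of tested genes.

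For antioxidant genes under NRF2 no difference was called. Of 25 tested, 8 rose in monocytes and 2 in macrophages by the test, where 150 and 6 of all 17466 genes did. With each cell type fitted alone the members that rose were 0 and 10, against 4 and 142 over all genes. Signs were opposite for 1 gene, and the median effect was 0.49 in monocytes and 0.46 in macrophages. The median difference was -0.12 with 0 called. Srxn1, sulfiredoxin, rose from 199.6 ± 28.5 to 336.0 ± 47.7 CPM in monocytes and from 209.4 ± 6.1 to 324.3 ± 41.3 CPM in macrophages, a difference of -0.12 ± 0.16. Hmox1, heme oxygenase, had a difference of -0.12 ± 0.21, the ferritin chains Fth1 and Ftl1 of -0.31 ± 0.24 and -0.18 ± 0.17, and Prdx1, a peroxiredoxin, of -0.43 ± 0.28. An antioxidant response element (TGACNNNGC on either strand) was in 8 of the 21 members with a promoter, against 17.0% of tested genes.

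Among LXR targets and efflux genes 14 were tested and 9 had a positive difference (8592 of 17466 over all genes), with a median of 0.22 and 0 called. Abcg1, a cholesterol efflux pump, rose in both cell types, by 0.65 ± 0.14 in monocytes and 0.94 ± 0.14 in macrophages on the log2 scale (difference 0.29 ± 0.20, adjusted p = 0.815). Abca1, the other pump, measured 76.7 ± 31.0 and 65.5 ± 23.4 CPM in monocytes and 567.0 ± 79.8 and 929.4 ± 216.8 CPM in macrophages. Its difference was 0.94 ± 0.39 (adjusted p = 0.635), and its log2 change of 0.71 ± 0.28 in macrophages was not called in the 4-group fit (adjusted p = 0.506) but was with macrophages alone (0.0281).

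Macropinocytosis machinery, which the title of the series concerns, showed no call among 40 tested genes, with a median difference of -0.01 and 19 above 0 to 21 below. At an unadjusted p under 0.05, 4 were higher and 0 lower (652 and 609 of all 17466 genes tested). Wasf2, an activator of actin branching, was the 1 member that fell in monocytes (157.1 to 98.4 CPM; adjusted p = 0.302 with monocytes alone) and measured 207.9 and 206.5 CPM in macrophages, a difference of 0.67 ± 0.23 (adjusted p = 0.483). Rab5c, an early endosome GTPase, had 1.08 ± 0.39 (adjusted p = 0.545). Both were named after their values were seen. Of the other lists, fatty acid synthesis and desaturation (15) had a median of 0.14, chemokine receptors and adhesion (19) of -0.16, inflammatory mediators (23) of 0.02, ER chaperones and integrated stress (25) of -0.03, matrix and proteases (18) of -0.61 and mature dendritic cell genes (16) of -0.20, each with 0 called. Il1b measured 107.9 ± 31.1 and 92.8 ± 26.2 CPM in monocytes and 4.34 ± 1.98 and 2.25 ± 1.59 CPM in macrophages (difference -0.73 ± 0.52). Ccr2, the chemokine receptor of inflammatory monocytes, had a difference of -0.78 ± 0.42.

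Across all tested genes, the effects in the 2 cell types had a Spearman correlation of 0.18, and 56.7% of genes had the same sign. Over the 9563 genes with at least 5 CPM these were 0.30 and 60.6%. Genes are not independent replicates, and the estimates share a dispersion trend, so these values are a description only. The median effect was -0.0288 in monocytes and -0.0011 in macrophages.

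A difference of log2 effects compares folds, so a gene with unequal starting levels can look different in CPM. Of the 11 called genes, 1 had the opposite sign on the CPM scale: Idi1 changed by -5.27 CPM in monocytes and -4.70 in macrophages, a difference of 0.57 ± 5.01. In all, 4 of the 11 lay within 2 SE of 0 on that scale, Sqle (-23.8 ± 14.5) and Cyp51 (-11.7 ± 23.2) among them. Insig1 (-34.3 ± 5.57), Msmo1 (-62.4 ± 14.96), Stard4 (-4.61 ± 1.01), Rn7sk (-35.6 ± 9.35) and Zfp217 (11.9 ± 1.98) differed on both scales.

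Near the threshold, with an adjusted p of 0.0655, were also Dpep2 and Bcl2l14, both outside the naming rule. Dpep2, a dipeptidase that cleaves leukotriene D4, rose in monocytes from 0.29 ± 0.16 to 0.73 ± 0.19 CPM, and measured 4.20 ± 0.59 and 2.86 ± 0.49 CPM in macrophages, where the groups did not overlap (difference -1.88 ± 0.38). Bcl2l14 stood at 211.5 ± 25.5 and 190.7 ± 22.5 CPM in monocytes and at 0.17 ± 0.12 and 0.01 ± 0.02 CPM in macrophages. Its fitted difference of -3.45 ± 0.70 rests on macrophage counts near 0 and is no measure of size.

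How many genes were called depended on the fit. The 10 genes named here kept their direction in every fit run, but so did all 67 genes refitted, called or not. Among these was Hmox1, with a difference of -0.12 (edgeR adjusted p = 0.968). The fits share most of their libraries, so a kept direction does not set the 10 genes apart. DESeq2 called 60 (16 higher, 44 lower). Without the 4 monocyte libraries high in neutrophil markers 129 were called (85 higher, 44 lower). With the monocyte and macrophage library sets as covariates, a fit chosen after seeing the data, 92 were called (22 higher, 70 lower). All 11 genes were among the calls of each of these 3 fits. Other fits lost some of them. With total counts as the only scaling 5 were called, and Cyp51, Idi1, Msmo1, Sqle, Stard4 and Zfp217 lost their calls. Limma voom called 8, and Gm24447, Hist1h4c and Zfp217 were lost. With no filter on low counts Hist1h4c, Stard4 and Zfp217 were lost. In the fit without the 4 libraries the 85 higher genes had a median length of 7583.5 bases and the 44 lower genes of 3819, against 3476 over all genes tested. That the higher genes were long was noted after seeing them, and its part in their difference was not tested. On the sterol list the number called lower was 7 here, 11 with DESeq2, 11 without the 4 libraries and 12 with both sets of covariates. With 1 spread per group in limma voom 13 genes were called: the 11, Mvd and Plin2.

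Leaving out 1 library moved the count from 11 to between 1 and 44. It was 1 without monocyte 8, monocyte 9 or macrophage A, 3 without monocyte 1, monocyte 6 or macrophage C, H or K, and 4 without macrophage D, I or L. It was 5 without macrophage B or E, 6 without macrophage G, 7 without monocyte 5, 18 without monocyte 7 and 44 without monocyte 10. Insig1 and Rn7sk kept their calls in 19 of these 22 fits, Msmo1 in 11, Cyp51 and Idi1 in 7, Gm24447 and Hist1h4c in 6, Zfp217 in 5, Sqle in 4 and Stard4 in 3. The estimates themselves moved little: over the 22 fits the difference ran from -1.26 to -1.07 for Insig1, -1.66 to -1.33 for Idi1, -1.51 to -1.29 for Sqle, -1.03 to -0.88 for Stard4 and 1.0954 to 1.3014 for Zfp217. Within sets of libraries the log2(CPM + 1) difference was below 0 in 6 of 6 pairings of a monocyte set with a macrophage set for each of the 6 sterol genes, and above 0 in 6 of 6 for Zfp217. These pairings reuse the same libraries and are not independent. Cd36, Mmp12 and Msr1, whose differences were not called, were also below 0 in 6 of 6. The pairings therefore do not set the called genes apart.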

How the data were processed

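RNA from 22 samples of mouse splenic monocytes and macrophages was sequenced from SMARTer low-input libraries of polyA RNA, per the labels. The authors aligned reads with STAR 2.7.9a to GRCm38 and counted them with featureCounts 2.0.3, per the submitters' processing notes. The sources used here do not give strand, multimapping or annotation release. The deposited tables give counts for 55487 genes, and the deposited CPM, FPKM and TPM follow from those counts with 0 departures and were not used further. Totals were about 37330400 to 50257100 counts a library.

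Counts were fitted over all 4 groups in edgeR 4.0.16 (R 4.3.3; TMM factors, filterByExpr, quasi-likelihood F test, 2-sided, Benjamini-Hochberg over 17466 genes), with the difference of effects as a contrast and no covariate. The fit was also run on simulated counts. Those gave each gene the same spread in both cell types and had no library sets. They therefore cannot check the fit where spread differs between cell types, as it did here. SE come from the F statistic, and CPM from the counts with TMM factors. DESeq2 1.42.0 and limma 3.58.1 were alternatives, beside other scalings, filters, library sets and leaving out each library. Groups share no replicate numbers.

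Named genes were up to 15 called genes in each direction with a mean of at least 5 CPM, predicted genes (Gm, Rik) left out, up to 6 called members a list (or the 2 most abundant), up to 15 reversals, a preset of lipid and monocyte genes, and 2 genes on each side of the threshold. Genes, lists and rules were chosen with earlier results of these data known. Promoters come from RefSeq (GRCm38.p6). Counts include 1 called gene and some list members whose values are not reported here. Reads carry no molecular identifiers, so counts include amplified copies.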

Additional observations from a re-analysis of the deposited data

Results flagged for a closer look

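The 10 genes below stand out because their ox-LDL effect differed between the cell types by a test of the difference itself (macrophage minus monocyte log2 change, edgeR, adjusted over all genes tested). Among the sterol genes the difference was -1.1628 for Insig1, -1.4499 for Idi1, -1.1876 for Msmo1, -1.0771 for Cyp51, -1.398 for Sqle and -0.9453 for Stard4, and in each of them all 6 ox-LDL macrophage libraries lay below all 5 vehicle macrophage libraries. It was -2.2224 for Rn7sk, -2.1173 for its copy Gm24447 and -1.9455 for Hist1h4c, whose macrophage levels lay under 1 CPM. It was 1.2121 for Zfp217, where all 5 ox-LDL monocyte libraries lay below all 6 vehicle monocyte libraries. In the 40 combinations of these 10 genes with the 4 groups, 0 libraries stood apart from the rest of their group by Dixon's test, which chance passes in about 1 of 20.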

How the results depend on the processing

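Against 11 genes called for the difference, the count was 5 with total counts as the only scaling, 60 with DESeq2, 33 with 2 and 47 with 3 monocyte library sets as covariate, 129 without the 4 monocyte libraries high in neutrophil markers, and, in fits chosen after seeing the data, 19 with 2 macrophage sets and 92 with both kinds of set. Against 259 called for ox-LDL in monocytes, it was 720 with DESeq2, 392 with limma voom, 25 with 1 spread per group, 147 with no filter, 394 with a mean of at least 5 CPM, 902 without the 4 libraries, 778 and 988 with 2 and 3 monocyte sets, 1179 with both kinds and 4 with monocytes alone. Against 80 in macrophages, it was 189 with DESeq2, 318 with 1 spread per group, 192 without the 4 libraries, 175 and 215 with 2 and 3 monocyte sets, 388 with both kinds and 342 with macrophages alone. The causes were not tested. Leaving out 1 library at a time gave 1 to 44 genes for the difference, 46 to 844 for monocytes and 44 to 93 for macrophages. For 67 genes refitted under each alternative, 2337 refits gave 0 changes of sign, 147 lost calls and 102 gained ones. No paired analysis was possible because the groups share no replicate numbers. Depth limits genes near 0 in macrophages, such as Bcl2l14, Extl1 and Ppbp.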
